A study of Mus musculus with 12 samples.

Results

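The 10 genes described here are *Krt7*, *Krt8*, *Krt18*, *Krt19*, *Cdh1*, *Cldn18*, *Wfdc2*, *Clu*, *Spint1* and *Spint2*, epithelial genes that were looked up by symbol among the 39179 genes of a count table of sorted pancreatic stellate cells (PSCs). They were chosen with their levels in co-cultured against mono-cultured PSCs in view, so those levels are given below as a description without a test. The PSCs were C57BL/6 mouse stellate cells carrying mCherry, which the paper lists as a clone immortalised with SV40. They were kept for 72 h on their own (mono-PSCs), with pancreatic cancer cells carrying EGFP (PCCs; 2W-PSCs), or with PCCs and macrophages carrying TagBFP (MØs; 3W-PSCs). PSCs of all 3 cultures were then sorted on mCherry, and cells with EGFP or TagBFP were gated out. The PCCs were a line from an iKras mouse pancreatic tumour, grown with doxycycline, and the MØs were the RAW264.7 mouse macrophage line, so each partner was a single line. There were 4 libraries for each culture, or 12 in total. The labels do not say that the replicates were separate cultures, so p-values measure the spread between these libraries, which may be technical.

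Libraries were made with a 3′ kit that reads the end of each transcript about once. Levels are therefore in CPM without a correction for length and can be set side by side between genes. CPM are reads of a gene relative to all reads of its library, with that total scaled between libraries (TMM). Total counts were 4561817 to 8093368 per library. 2W-PSC replicate 2 stood apart. It had the lowest total count, and 10363 genes with 10 counts or more against 10915 to 11741 in the other libraries. Results that rest on it are given with and without it.

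Simple epithelia, such as that of the pancreatic duct, hold keratin filaments built from pairs of one type II keratin (*Krt7*, *Krt8*) and one type I keratin (*Krt18*, *Krt19*). Their cells are joined by E-cadherin (*Cdh1*), which binds catenins at its inner face, and sealed by claudins, of which claudin 18 (*Cldn18*) is best known from stomach and lung. *Wfdc2* codes for a small secreted protein of ducts and airways, and *Clu* for clusterin, a secreted chaperone that many injured or stressed cell types also make. *Spint1* and *Spint2* code for HAI-1 and HAI-2, membrane-bound inhibitors of the proteases that activate hepatocyte growth factor (HGF) and of matriptase. Stellate cells are mesenchymal, and transcription factors of the Snail, ZEB and Twist families are known to repress epithelial genes such as *Cdh1* in mesenchymal cells, the Snail and ZEB proteins by binding E-boxes.

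On GRCm38 (GENCODE M21), *Krt7*, *Krt8* and *Krt18* lie together on chromosome 15, at 101411043 to 101430313 (plus strand), 101996698 to 102004482 (minus strand) and 102028180 to 102032027 (plus strand). *Krt8* and *Krt18* are thus neighbours that point away from each other. *Krt19* (minus strand of chromosome 11, 100140810 to 100148665) and the 6 genes that are not keratins lie elsewhere, *Wfdc2* and *Spint1* both on chromosome 2 but far apart. Of the 75-base windows in the last 500 bases of the transcripts, 0% occurred in another annotated gene for each of the 10 genes. *Krt7* shared 77 exonic bases with the antisense gene *Gm671*, and *Krt8* 101 with *Gm36026*. The strand setting of the counting is not given in the sources used here, so reads in those bases cannot be told apart.

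RefSeq windows of 250 bases before the start (GRCm38.p6) were on hand for 7 of the 10 genes, all but *Clu*, *Krt19* and *Cdh1*. They were searched on both strands for the Snail and ZEB E-box CACCTG and for the AP-1 letters TGANTCA. The 4 stretches below are shown since 8 of the 10 genes tended to vary together between libraries, and since they include the windows with the most and with no E-box. Capitals mark the E-box, which reads as its reverse complement where it lies on the other strand, and only bases outside the exons of GENCODE M21 are printed. They lie at chr2:164562475-164562578 (*Wfdc2*, plus strand), chr15:102027966-102028179 (*Krt18*, plus strand), chr7:29281978-29282227 (*Spint2*, minus strand) and chr9:99717268-99717517 (*Cldn18*, minus strand, the more upstream of its annotated starts).
Wfdc2: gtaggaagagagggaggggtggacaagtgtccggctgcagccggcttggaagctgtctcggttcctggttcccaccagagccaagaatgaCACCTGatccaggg
Krt18: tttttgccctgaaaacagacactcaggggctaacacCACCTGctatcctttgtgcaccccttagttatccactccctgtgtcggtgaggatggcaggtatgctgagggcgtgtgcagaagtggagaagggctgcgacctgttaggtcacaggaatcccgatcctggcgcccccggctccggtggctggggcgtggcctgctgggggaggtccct
Spint2: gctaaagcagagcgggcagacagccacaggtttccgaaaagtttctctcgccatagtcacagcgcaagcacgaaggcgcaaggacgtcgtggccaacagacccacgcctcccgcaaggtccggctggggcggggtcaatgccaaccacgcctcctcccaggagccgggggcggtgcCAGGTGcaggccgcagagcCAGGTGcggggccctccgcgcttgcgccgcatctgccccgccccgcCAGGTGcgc
Cldn18: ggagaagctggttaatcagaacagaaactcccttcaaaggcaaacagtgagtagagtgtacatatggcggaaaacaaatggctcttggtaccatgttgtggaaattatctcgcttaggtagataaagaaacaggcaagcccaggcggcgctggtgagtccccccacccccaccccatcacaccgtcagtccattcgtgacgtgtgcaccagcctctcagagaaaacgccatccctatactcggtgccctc

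The E-box letters were found once in the windows of *Wfdc2*, *Krt7*, *Krt8* and *Krt18* and 3 times in that of *Spint2*, and in neither window of *Cldn18* nor in that of *Spint1*. In *Krt7* and *Krt8* the match lay within an annotated exon. Of all 32851 windows of this length, 17.2% held the E-box. No AP-1 match was found in the members' windows, against 6.75% of all windows. These are matches of letters and not binding sites.

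The keratins were near 0 in mono-PSCs and present in every co-culture library. *Krt18*, the type I partner of *Krt8*, had 0, 1, 1 and 0 counts in the 4 mono-PSC libraries. Its levels were 33.9, 31.9, 30.7 and 53.1 CPM in 2W-PSCs and 27.2, 20.1, 15.3 and 30.1 CPM in 3W-PSCs. All 8 co-culture libraries thus lay far above the mono-PSC libraries, and 2W-PSC replicate 4 was the highest. The ratio of pooled CPM was 467 for 2W-PSCs (95% interval from counting error alone, 129 to 3859) and 284 for 3W-PSCs (78.5 to 2354). These ratios rest on 2 mono-PSC counts in all, so their size is known only to about the width of the interval. Intervals here are exact and cover counting error only, with PCR copies counted as reads.

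*Krt8* was the lowest of the 4 keratins in both co-cultures. It had 0, 1, 0 and 0 counts in mono-PSCs, with levels of 7.04, 2.45, 6.21 and 8.51 CPM in 2W-PSCs and 6.38, 5.55, 6.11 and 7.14 CPM in 3W-PSCs. The low 2W value is that of replicate 2, the library that stood apart. *Krt7*, the other type II keratin, had 2, 3, 0 and 1 counts in mono-PSCs and reached 21.1, 20.1, 11.3 and 31.3 CPM in 2W-PSCs and 12.1, 8.44, 9.80 and 13.3 CPM in 3W-PSCs. Its pooled ratio to mono-PSCs was 86.6 in 2W-PSCs (39.5 to 237) and 44.5 in 3W-PSCs (20.2 to 122). *Krt19*, a type I keratin of ducts, was detected in all mono-PSC libraries, with 7, 1, 1 and 2 counts. Its levels were 24.4, 12.5, 15.1 and 17.7 CPM in 2W-PSCs and 13.9, 11.5, 11.5 and 18.1 CPM in 3W-PSCs. For *Krt19* alone among these keratins, 2W-PSC replicate 1 and not replicate 4 was the highest 2W library.

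The junction genes showed the same contrast. *Cdh1* had 5, 5, 2 and 1 counts in mono-PSCs, against 13.8, 15.5, 10.3 and 34.4 CPM in 2W-PSCs and 12.6, 9.83, 6.36 and 19.4 CPM in 3W-PSCs. Replicate 4 was the highest in both co-cultures. The pooled ratio was 35.3 in 2W-PSCs (20.4 to 66.8) and 22.7 in 3W-PSCs (13.1 to 43.0). *Cldn18* had a single count over all mono-PSC libraries. It reached 22.1, 21.1, 17.7 and 35.5 CPM in 2W-PSCs and 13.5, 15.6, 15.02 and 23.5 CPM in 3W-PSCs, again highest in replicate 4 of each.

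Of the secreted products, *Clu* was the most abundant member in every library, and the only one with at least 10 counts in all 4 mono-PSC libraries. Its levels were 2.28, 3.72, 4.44 and 3.39 CPM in mono-PSCs, 77.3, 122, 68.9 and 170.0 CPM in 2W-PSCs and 54.3, 38.5, 41.7 and 73.3 CPM in 3W-PSCs. With 85 mono-PSC counts its ratio was the best defined of all, at 31.2 in 2W-PSCs (25.1 to 39.1) and 14.96 in 3W-PSCs (12.03 to 18.8). *Wfdc2* had 1 count in mono-PSCs in all. Its levels were 23.7, 28.5, 22.6 and 36.1 CPM in 2W-PSCs and 12.1, 13.4, 13.4 and 17.4 CPM in 3W-PSCs, without overlap between the co-cultures.

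The 2 protease inhibitors did not share this pattern. *Spint1* had 5, 0, 3 and 6 counts in mono-PSCs and 8, 2, 0 and 3 in 2W-PSCs. The pooled ratio of 2W-PSCs to mono-PSCs was 0.968 (0.419 to 2.22), so no difference was detectable at this depth. In 3W-PSCs it had 16, 16, 19 and 13 counts, or 1.69 to 2.42 CPM, above all libraries of the other cultures. *Spint2* had 0, 0, 0 and 1 counts in mono-PSCs, 0, 0, 3 and 0 in 2W-PSCs and 2, 9, 1 and 1 in 3W-PSCs. It thus had 3 counts or fewer in 11 of 12 libraries. All 4 of the 3W libraries held reads, and the pooled ratio of 3W-PSCs to mono-PSCs was 10.1 (1.52 to 430), from 13 counts, 9 of them in replicate 2, against 1. Neither inhibitor was thus found above its mono-PSC level in 2W-PSCs at this depth.

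**Figure D1:**
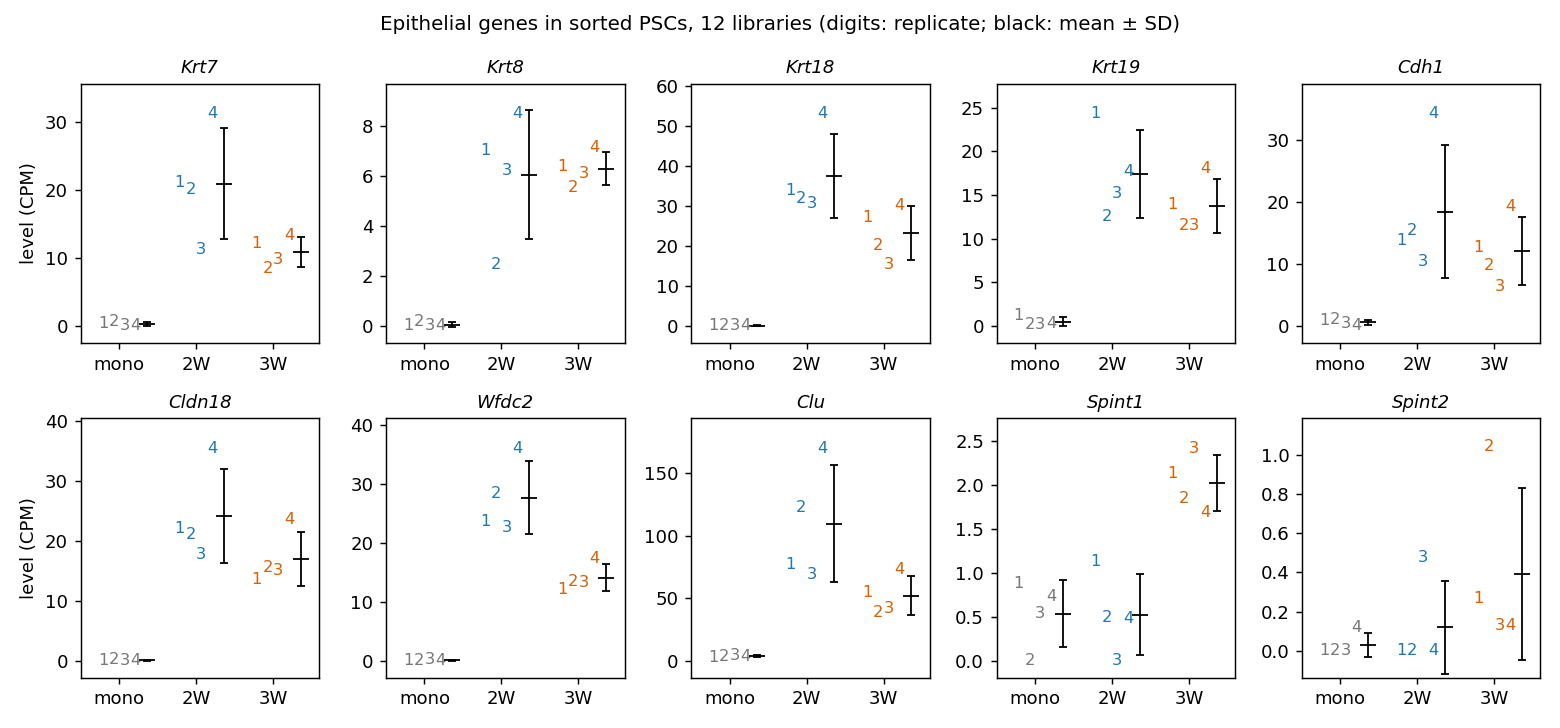
Levels in CPM (linear axes, a scale for each gene) of the 10 genes in sorted mono-PSCs, 2W-PSCs and 3W-PSCs. Each digit is a library, named by its replicate number, and the black marks are mean ± SD (n = 4). For 8 genes every co-culture library lies above every mono-PSC library, whereas for *Spint1* only the 3W libraries lie above every mono-PSC library and *Spint2* stays at or below 1.04 CPM.

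Passing the low-count filter were 8 of the 10 genes for 2W-PSCs against mono-PSCs and 9 of 10 for 3W-PSCs against mono-PSCs. All 8 and all 9 were higher in every co-culture library than in any mono-PSC library. Over all genes tested, the share higher without overlap was 3.29% in 2W-PSCs and 13.7% in 3W-PSCs. Since the genes were chosen on this contrast, and could pass the filter through the co-cultures alone, nothing is read from these counts. In order of mean level in 2W-PSCs, *Clu* (109.6 ± 46.6 CPM, SD, n = 4) stood first, then *Krt18* (37.4 ± 10.6), *Wfdc2* (27.7 ± 6.16), *Cldn18* (24.1 ± 7.83), *Krt7* (20.96 ± 8.19), *Cdh1* (18.5 ± 10.8), *Krt19* (17.4 ± 5.08) and *Krt8* (6.05 ± 2.58). From *Krt18* to *Krt19*, neighbouring means differed by less than the larger SD of the pair, so this order is not resolved. *Krt8* lay below all of them.

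The comparison of 3W-PSCs with 2W-PSCs asks whether the levels differed when MØs were added. It was not what the genes were chosen on, although it uses the same co-culture libraries. *Wfdc2* and *Clu* were lower with MØs than without. *Wfdc2* differed by -0.97 ± 0.22 on the log2 scale (± SE, edgeR quasi-likelihood test, Benjamini-Hochberg adjusted p = 0.0191), with no overlap of the libraries. For *Clu* the difference was -1.07 ± 0.30 (adjusted p = 0.0454 in edgeR), although its highest 3W library (73.3 CPM) exceeded its lowest 2W library (68.9 CPM).

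Of 9 genes tested, these 2 were called lower and 0 higher. By unadjusted p under 0.05, edgeR gave 4 lower and 1 higher, against 1513 lower and 1513 higher among all 11513 genes tested. DESeq2 called 3, of which 0 were higher, and its share over all genes is not given here. Over all genes, by adjusted p in edgeR, 4.95% were called lower, 5.73% higher, and 10.7% in either direction. The median of the 9 log2 differences was -0.62, against 0.003 over all genes tested. The number called was 0 without 2W-PSC replicate 4 or without 3W-PSC replicate 1, 2 or 3. In those 4 fits, which hold fewer libraries, *Wfdc2* still differed by -0.83 to -0.95 and *Clu* by -0.79 to -1.09. It was 4 without 2W-PSC replicate 2, *Krt7* and *Krt18* being added, and 3 without 2W-PSC replicate 3, where *Krt7* was added.

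*Krt7* had a difference of -0.94 ± 0.30 (edgeR adjusted p = 0.0719) and *Krt18* of -0.69 ± 0.26 (edgeR adjusted p = 0.120), the latter with no overlap. Without overlap and lower were 2 of the 9 genes, against 9.87% of all genes. The remaining junction and keratin genes did not pass the edgeR test. Their differences were -0.51 ± 0.27 for *Cldn18* (adjusted p = 0.258), -0.62 ± 0.42 for *Cdh1* (0.381), -0.35 ± 0.26 for *Krt19* (0.439) and 0.04 ± 0.36 for *Krt8* (0.957). The sign of *Krt8* was not stable, since it was -0.20 without 2W-PSC replicate 2. *Spint1* lay the other way at 1.88 ± 0.69 (edgeR adjusted p = 0.107), with every 3W library above every 2W library, as for 11.5% of all genes. It had at most 8 counts in any 2W library, so it passed the filter through the 3W libraries. *Spint2* had too few counts for the test.

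**Figure D2:**
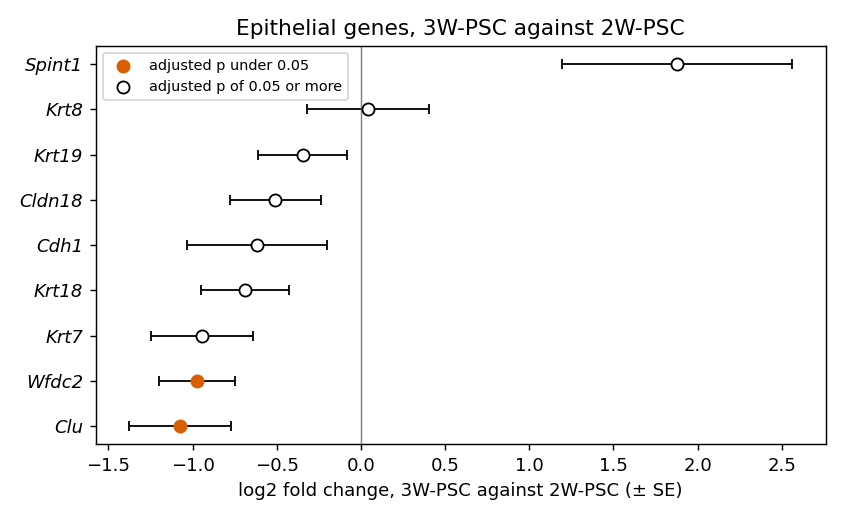
Log2 fold changes of 3W-PSCs against 2W-PSCs (edgeR, 4 libraries each) with SE bars, filled where the adjusted p is under 0.05. *Wfdc2* (-0.97) and *Clu* (-1.07) are filled, the keratins lie between -0.94 and 0.04, and *Spint1* is at 1.88.

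Within the co-cultures, 8 of the 10 genes tended to vary together from library to library, *Krt8* and *Krt19* the least. *Spint1* and *Spint2*, which had few counts, were left out of the order of libraries, the correlations and the shares below. *Spint1* was at 1.13, 0.491, 0 and 0.482 CPM in 2W-PSCs. In 3W-PSCs it was at 2.13, 1.85, 2.42 and 1.69 CPM, lowest in replicate 4. The summed level of the 10 genes was 4.72 to 6.07 CPM without partners, 183 to 387 CPM with PCCs and 122 to 204 CPM with PCCs and MØs. This is 0.0183 to 0.0387% of the TMM-scaled total of a 2W library. 2W-PSC replicate 4 was the highest of its culture for 7 of the 8 genes other than *Spint1* and *Spint2*, and 2W-PSC replicate 3 the lowest for 6. Replicate 2 was the lowest for the other two, *Krt8* and *Krt19*. In 3W-PSCs, replicate 4 was the highest for all 8, and the lowest place was shared among replicates 1, 2 and 3.

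After subtraction of the culture means, the 28 pairs of these 8 genes had a median Pearson r of 0.70 over the 8 co-culture libraries, with a range of 0.07 to 0.96 and all above 0. Over all pairs of the 11736 other genes kept, the median was 0.001 and 50.1% lay above 0. *Krt18* and *Cdh1* were the most alike (0.96), followed by *Wfdc2* and *Cldn18* (0.94). *Clu* and *Krt8* were the least alike (0.07). Without 2W-PSC replicate 2, where *Krt8* and *Krt19* were low while *Clu* was high, the median was 0.83 and the range 0.25 to 0.98. Even then *Krt19* followed the other genes less closely. Its pairs ran from 0.253 (with *Wfdc2*) to 0.555 (with *Krt7*), against 0.684 or more for all other pairs. The points share libraries, depth and scaling factors, and no test was made.

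**Figure D3:**
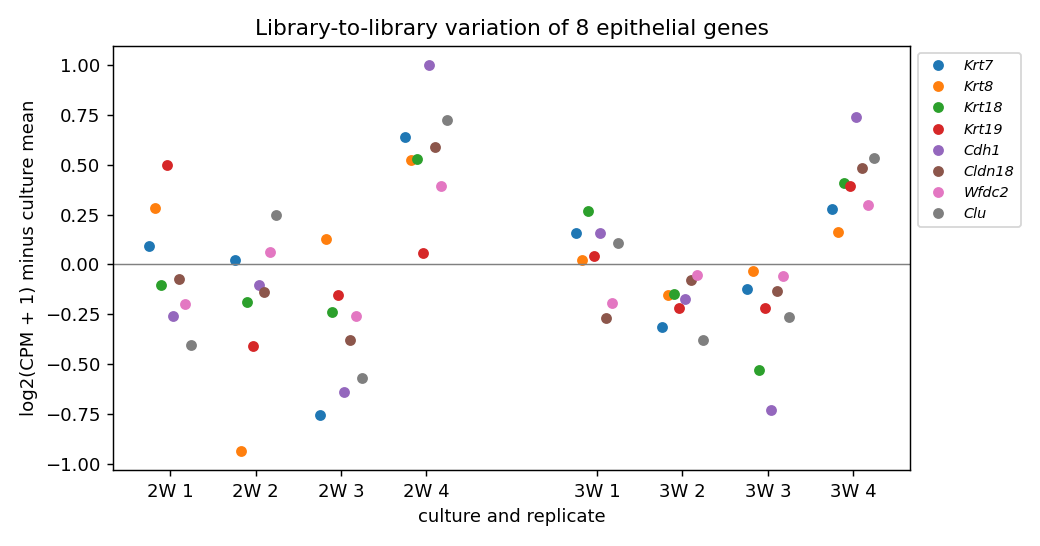
Log2(CPM + 1) of 8 genes minus the mean of their culture, by co-culture library, with a colour for each gene and a small sideways offset. Replicate 4 of each culture carries the highest values, except for *Krt19* in 2W-PSCs, and in 2W-PSC replicate 2 *Krt8* and *Krt19* lie low while *Clu* lies high.

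As for the make-up of the sum, *Clu* made up 41.1 ± 6.07% of the summed level of the 8 genes in 2W-PSCs and 34.6 ± 2.22% in 3W-PSCs (SD, n = 4). *Krt18* made up 14.6 ± 1.84% and 15.5 ± 2.16%, and *Wfdc2* 10.9 ± 1.26% and 9.67 ± 1.64%. The share of *Krt8* was 0.965 to 3.39% over the 2W libraries and 3.54 to 5.13% over the 3W libraries, without overlap. *Krt19* was the steadiest of all in 3W-PSCs (9.26 ± 0.286%) and among the least steady in 2W-PSCs (7.17 ± 3.00%). A share depends on the other genes in the sum, chiefly on *Clu*, and the shares were not tested.

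**Figure D4:**
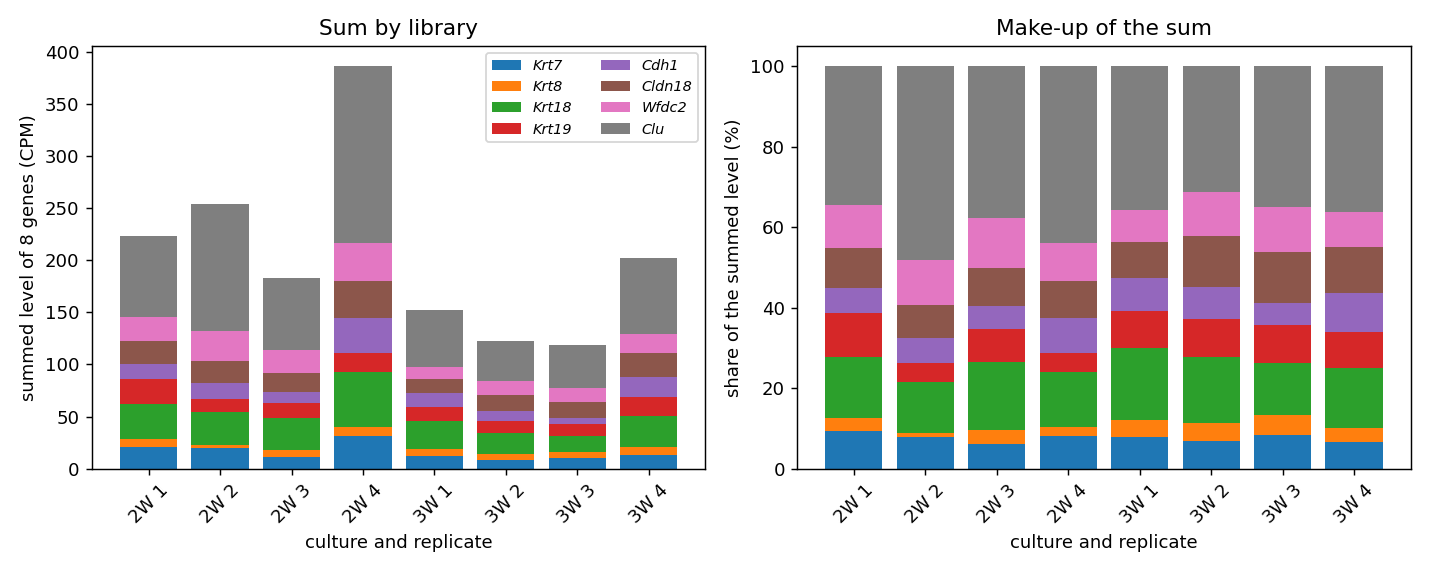
Left, the summed level of 8 genes (CPM) in each co-culture library, divided by gene. Right, the same as shares of the sum (%). The sums run from 119 CPM in 3W-PSC replicate 3 to 387 CPM in 2W-PSC replicate 4, while *Clu* stays between 31.3 and 48.1% of each.

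The other genes of epithelia were listed as keratins, junction genes, regulators, and secreted or surface genes, 71 in all. Part of this set was higher in co-cultured PSCs and part was not detected. In 2W-PSCs against mono-PSCs, 17 of the 71 had enough counts for the test, and 8 were called higher by edgeR, against 0.839% of all genes (7 with the replicate number as a block, 2 when every library needed 10 counts). None was called lower. At an unadjusted p under 0.05, 1 was lower, as were 277 of all 11199 genes tested. DESeq2 called 16 of the 71, of which 1 was lower. In 3W-PSCs against mono-PSCs, 22 were tested, 15 were called higher and 3 lower, against 13.4% and 13.0% of all genes. Genes low in mono-PSCs could pass the filter only through a co-culture, so these counts are best read over all 71. The 71 were also listed with earlier results of these data known. The counts therefore describe the list and are not a test of it.

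Among keratins, *Krt23* was the only further one called. It had 1 count in mono-PSCs in all, and 9.71, 1.96, 12.4 and 9.95 CPM in 2W-PSCs, the low value again in replicate 2. Its 3W levels were 6.11 to 9.16 CPM. Among junction genes, *Perp* (a desmosome component) and *Cldn6* had 0 counts in every mono-PSC library, and *Perp* reached 18.4, 6.38, 8.44 and 19.3 CPM in 2W-PSCs and 3.24 to 6.37 CPM in 3W-PSCs. *Cldn6*, *Cldn2* and *Lsr* (a protein of tricellular junctions) were called higher in both co-cultures. They had at most 3 counts in any mono-PSC library, so they passed the filter through the co-cultures, and their levels were 1.69 to 3.53, 4.91 to 11.7 and 2.45 to 11.1 CPM in 2W-PSCs. *Onecut2*, a transcription factor of liver and pancreas, had 11 to 31 counts in mono-PSCs and rose by 2.74 ± 0.38 in 2W-PSCs (edgeR adjusted p = 0.00277) and by 2.79 ± 0.30 in 3W-PSCs (adjusted p = 2.68e-06). The surface protein gene *Cd24a* and *Spp1*, which codes for osteopontin, were also called higher in both. Osteopontin is made by duct cells, fibroblasts and macrophages alike.

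A second group of 7 genes was called higher against mono-PSCs in 3W-PSCs, while in 2W-PSCs *Foxa2* was not called (edgeR adjusted p = 0.264) and the other 6 had too few counts in that fit to be tested. It held *Lcn2* and *Slpi*, secreted proteins of inflamed epithelia and of myeloid cells, the mucin *Muc1*, *Tspan8*, *Anxa10*, the desmosome gene *Dsp* and *Foxa2*, a transcription factor of endoderm. For *Lcn2* the difference between the co-cultures was itself called (3.499 ± 0.791, edgeR adjusted p = 0.0177), from 0, 1.23, 0.637 and 0 CPM in 2W-PSCs to 5.31, 5.20, 3.56 and 4.94 CPM in 3W-PSCs. *Lcn2* had at most 5 counts in any 2W library, so it passed the filter through the 3W libraries. *Spp1* was likewise higher with MØs than without (1.36 ± 0.26, adjusted p = 0.00871). *Slpi* had 0 counts in all 2W libraries and 10 to 19 in 3W libraries, too few for the test of that difference. The other genes of this group were present in 2W-PSCs too, such as *Foxa2* with 36, 37, 8 and 33 counts and *Anxa10* with 22, 11, 27 and 9, and their difference between co-cultures was not called.

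In the other direction, the tight-junction genes *F11r* and *Cldn1* and the plakophilin *Pkp2* were expressed in mono-PSCs and lower in 3W-PSCs. *Cldn1* ranged over 10.8 to 20.01 CPM in the mono libraries, 2.45 to 8.76 CPM in the 2W libraries and 0.133 to 1.56 CPM in the 3W libraries, with no overlap between any of the cultures. It fell by 4.75 on the log2 scale in 3W-PSCs against mono-PSCs (edgeR adjusted p = 1.56e-06) and fell by 3.20 against 2W-PSCs (adjusted p = 0.0147). *F11r* fell by 1.09 (adjusted p = 0.000296) and 0.98 (adjusted p = 0.00549), and *Pkp2* by 0.91 against mono-PSCs (adjusted p = 0.0291). *Perp*, though higher than in mono-PSCs, was lower with MØs than without (-1.52 ± 0.40, adjusted p = 0.0337). In all, 2 of these genes were called higher and 3 lower in 3W-PSCs against 2W-PSCs, of 23 tested, where 5.73% and 4.95% of all genes were. This number of calls, 5, was 8 without 2W-PSC replicate 2, and 3, 2 and 3 without 3W-PSC replicates 1, 2 and 4.

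Many defining epithelial genes were not detected. Of the 71, 13 had 0 counts in all 12 libraries, among them *Cldn4*, *Ehf*, *Agr2*, *Muc4*, *Ap1m2* and *Dsc2*. *Epcam*, a surface marker of most simple epithelia, had at most 3 counts in any library and 0 in every 2W library. The epithelial splicing and transcription factors *Esrp1* and *Grhl2*, and the claudin *Cldn7*, also had at most 3 counts in any library. Of 50 genes with at most 3 counts in each mono-PSC library, 5 had at least 10 counts in all 4 of the 2W libraries and 11 in all 4 of the 3W libraries. In mono-PSCs themselves, 9 of the 71 had at least 10 counts in all 4 libraries, such as *F11r* and the transcription factor *Sox9* (77.8 to 130 CPM).

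**Figure D5:**
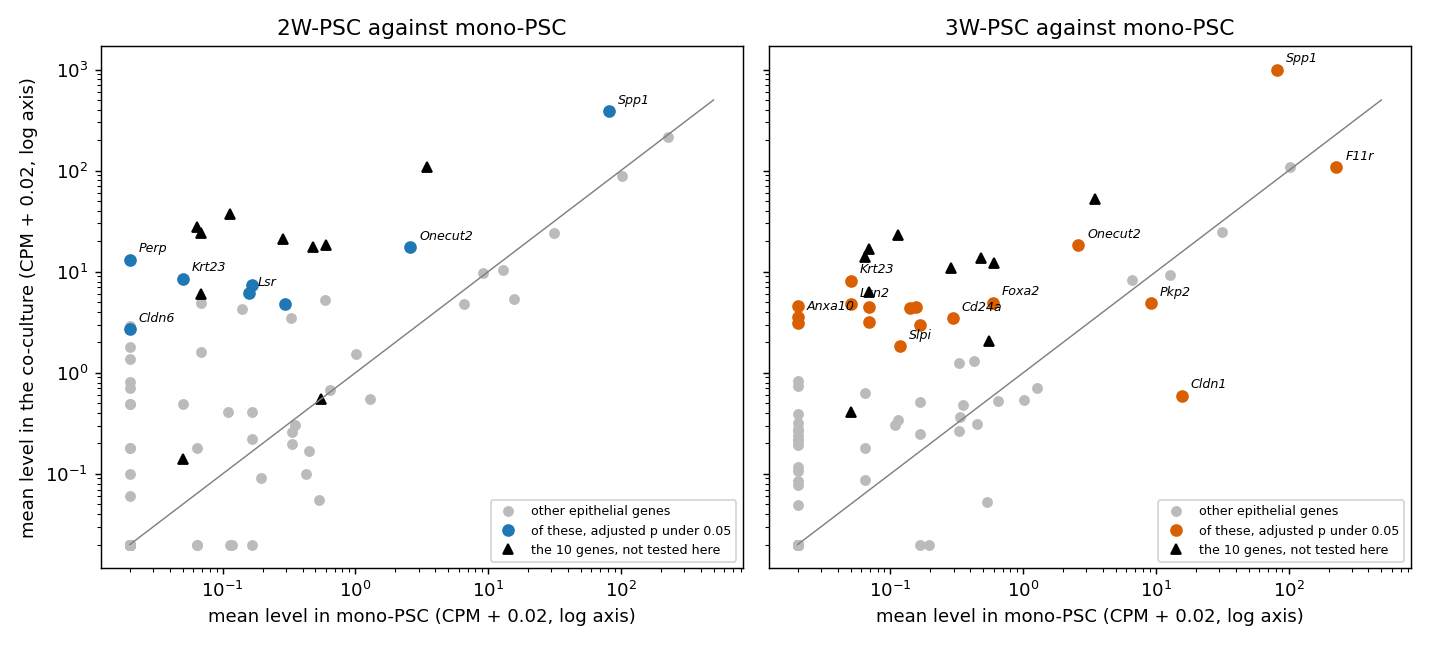
Mean level in mono-PSCs (horizontal) against mean level in 2W-PSCs (left) or 3W-PSCs (right), in CPM + 0.02 on log axes. Grey and coloured points are the 71 other epithelial genes, coloured where the edgeR adjusted p is under 0.05 and named where there is room, and black triangles are the 10 genes. Most triangles and 8 (left) or 15 (right) coloured points lie above the line of equal levels, and *Cldn1*, *F11r* and *Pkp2* lie below it on the right.

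Of the 9 genes of the HAI proteases and of HGF and its receptor, 4 were hardly detected. Matriptase (*St14*) and prostasin (*Prss8*) had at most 4 counts in any library, and *Hpn* and *Tmprss4* at most 1. *Plau*, which codes for urokinase, was expressed, at 4.11 to 16.2 CPM in mono-PSCs, 15.5, 0, 28.7 and 13.2 CPM in 2W-PSCs and 3.85 to 17.3 CPM in 3W-PSCs, and was called in no comparison. In 3W-PSCs against mono-PSCs, 4 of the 9 had enough counts for the test, and 2 were called higher, against 13.4% of all genes tested. They were *Hgf* (the growth factor, 1.84 ± 0.50, edgeR adjusted p = 0.0116) and *Prss22* (a serine protease, 3.38 ± 0.75, adjusted p = 0.00288). *Prss22* had at most 3 counts in any mono-PSC library, and *Hgf* had 6, 22, 5 and 9. Both passed the filter through the 3W libraries, so nothing is read from this count. *Hgf* levels were 1.05, 4.31, 0.888 and 1.09 CPM in mono-PSCs, then 1.72 to 3.10 CPM with PCCs and 4.16 to 9.03 CPM with MØs added. The HGF receptor gene *Met* was expressed in all cultures, at 26.6 to 38.6 CPM in mono-PSCs and 21.5 to 27.3 CPM in 3W-PSCs, and was not called between these 2 cultures (adjusted p = 0.101). *Hgfac*, the HGF activator that HAI-1 inhibits, reached 27 counts in 2W-PSC replicate 4 and at most 6 elsewhere. That library was also the highest for 7 of the members.

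The partners of E-cadherin, by contrast, were abundant in every culture. β-Catenin (*Ctnnb1*) was at 297 to 374 CPM in mono-PSCs and 390 to 396 CPM in 3W-PSCs, and *Ctnna1* at 228 to 294 and 194 to 265 CPM. *Cdh2*, the N-cadherin of mesenchymal cells, was at 24.4 to 45.9 CPM over all libraries, against 6.36 to 34.4 CPM for *Cdh1* in co-cultures. Of 6 genes in this list, *Cdh11*, a cadherin of fibroblasts, rose in 2W-PSCs against mono-PSCs (2.40 ± 0.24, edgeR adjusted p = 0.000265). It also rose in 3W-PSCs against mono-PSCs (1.59 ± 0.22, edgeR adjusted p = 3.87e-05), though it was lower with MØs than without (-0.79 ± 0.19, adjusted p = 0.0218). *Ctnnd1* (p120-catenin) rose in 3W-PSCs against mono-PSCs (1.56 ± 0.47, adjusted p = 0.0202), although mono-PSC replicate 1, at 74.3 CPM, lay within the 3W range.

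The 7 genes listed as repressors of epithelial genes, *Prrx1* and genes of the Snail, ZEB and Twist families, were expressed throughout. Their summed levels were 408 to 491 CPM (mono), 480 to 599 CPM (2W) and 671 to 714 CPM (3W). *Prrx1*, which is outside the families named above as repressors, was at 81.1 to 101 CPM (mono), 113 to 136 CPM (2W) and 200 to 240 CPM (3W). Of the 7, 5 were called higher in 3W-PSCs against mono-PSCs, where 13.4% of all genes were. They were *Snai1* (2.89 ± 0.40, edgeR adjusted p = 4.41e-05), *Prrx1* (1.29 ± 0.15), *Zeb2* (1.05 ± 0.18), *Twist1* (0.71 ± 0.19) and *Twist2* (0.46 ± 0.16). Between the co-cultures, *Prrx1* was called too, higher in 3W-PSCs (0.83 ± 0.15, adjusted p = 0.00576). *Snai1* had 3.02 to 16.0 CPM in mono-PSCs, 24.4, 0.981, 22.4 and 9.31 CPM in 2W-PSCs and 36.3 to 54.8 CPM in 3W-PSCs. *Snai2*, the most abundant of them in mono-PSCs and 2W-PSCs apart from 2W-PSC replicate 2, was at 121 to 174 CPM in 3W-PSCs and was not called.

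Stellate cell and fibroblast markers were abundant in all 12 libraries. Over 16 genes they summed to 9472 to 13400 CPM (mono), 13560 to 20590 CPM (2W) and 8384 to 10040 CPM (3W), so that the 2W libraries lay above those of both other cultures. Of 14 tested between the co-cultures, 6 were called lower in 3W-PSCs, against 4.95% of all genes. They were *Col1a1*, *Col3a1*, *Sparc*, *Dcn*, *Thy1* and *Fap*. Called higher were 2, *Pdgfra* and *Pdpn*, against 5.73% of all genes. The members *Wfdc2* and *Clu* were also called lower. The part of these marker differences in the members' levels was not tested. The stellate marker *Des* was low, at 25 counts or fewer, as were *Lum*, at 7 or fewer, and *Fap*, at 5 or fewer outside the 2W libraries, where it had 18 to 48. Of the 8 acinar markers, only *Cela1* was detected in mono-PSCs and 2W-PSCs, at 6.21 to 19.1 CPM. As a sum, macrophage markers were higher in the 3W culture. The 19 found in the table summed to 10.7 to 15.6 CPM (mono), 13.7 to 19.4 CPM (2W) and 41.2 to 92.2 CPM (3W). Of these, 6 had enough counts for the test between the co-cultures. *Cd53*, *Cd14* and *Mpeg1* were called higher in the 3W culture, where 5.73% of all genes were, and 0 lower. *Cd53* and *Mpeg1* had at most 7 and 8 counts in any 2W library, so they passed the filter through the 3W libraries. *Cd68*, *Fcer1g* and *Csf1r* (0.07 ± 0.78, edgeR adjusted p = 0.965) were not called. *Cd14* also had 12 to 53 counts in mono-PSCs. *Osm* and *Emr1* (the older symbol of *Adgre1*) were at 0 in all libraries. The highest sum was that of 3W-PSC replicate 4, with 107 counts of *Lyz2*, 75 of *Laptm5* and 20 of *Ptprc*, and this was also the highest 3W library for 8 of the members. Without it, 2 of the 9 members were called between the co-cultures, as with it. The part of macrophage RNA in these levels was not tested.

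Of the 71 other epithelial genes, 8 were thus called higher in 2W-PSCs and 15 in 3W-PSCs against mono-PSCs, with 3 lower in 3W-PSCs and 13 at 0 throughout. PCC libraries were not analysed here, so the part of PCC RNA or of PCCs left after the sort in these levels was not tested. In bulk libraries, a few cells with high levels and many cells with low levels cannot be told apart.

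Over all 12 libraries, the genes other than members whose log2 CPM was most like the members' mean profile were *Il1rn* (Pearson r = 0.99), *Apoc2*, *Wnt7b*, *Fermt1*, *Perp*, *Pcbd1*, *Tns4*, *Foxs1*, *Lsr* and *Cldn6* (0.97). *Il1rn* had 1 count in mono-PSCs in all, a mean of 19.1 CPM in 2W-PSCs (10.2 to 29.4) and of 18.5 CPM in 3W-PSCs (14.5 to 29.6). When the culture means were subtracted, *Il1rn* was again first (0.90), followed by *Zfp160* (0.88) and *Zfand6* (0.86), both expressed in mono-PSCs at the level of the co-cultures or above, and *Cldn2* was the ninth (0.83). Without that subtraction, profiles over 12 libraries carry the step between mono-PSCs and co-cultures on which the members were chosen. That members rank near one another in such profiles was fixed by the choice. In them, the nearest of all genes to *Cldn18* was *Krt18*, and to *Cdh1* it was *Krt7*.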

How the data were processed

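The authors made 3′ (QuantSeq FWD) libraries, aligned single-end reads with STAR (GRCm38) and made gene counts with featureCounts and an Ensembl annotation, per the labels and methods. The deposited values are raw counts per gene, whole numbers without normalisation. Here, counts were compared in pairs of cultures (8 libraries per fit) with edgeR 4.0.16 (R 4.3.3), using TMM scaling, filterByExpr and glmQLFTest, with Benjamini-Hochberg adjustment over all genes tested and a threshold of 0.05. CPM use TMM scaling over 12 libraries, and correlations log2 CPM with a prior count of 2. No column was left out, and 11757 genes were kept. Ratios to mono-PSCs carry exact 95% counting intervals. The code was tested on simulated data. The members and gene lists were chosen with earlier results of these data known. Text names all members and, of each list, the genes called, the most abundant ones and defining markers at 0, and the 10 genes with the highest r to the mean profile. Positions are from GENCODE M21, promoters from RefSeq. Alternatives were DESeq2 1.42.0, its size factors, other filters, a joint fit, a replicate block and leaving out each library. Deviations of same-numbered mono-PSC and 2W-PSC libraries correlated (r = 0.338, 0.260, 0.214 and 0.102), so these numbers were taken as pairs from the data alone, the labels naming no shared batch. This pairing entered only the replicate block. The p-values printed above are from fits without it. Total counts were 4561817 to 8093368.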

Additional observations from a re-analysis of the deposited data

Results flagged for a closer look

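In 8 of 30 groups of 4 libraries, 1 library lay far from the other three, by the ratio of its gap to the range of the group (Dixon's 95% rule for 4 values). Chance gives about 1 in 20 groups of continuous values. In 5 of the 8 a single library had counts and the others had none, which makes the ratio 1.0 by construction, so that rate does not apply to them. These were *Wfdc2* (mono-PSC replicate 3, 0.178 CPM, ratio 1.0), *Cldn18* and *Krt8* (mono-PSC replicate 2, 0.196 CPM each, ratio 1.0 each) and *Spint2* (mono-PSC replicate 4, 0.121 CPM, ratio 1.0, and 2W-PSC replicate 3, 0.478 CPM, ratio 1.0). *Krt19* was at 1.23 CPM in mono-PSC replicate 1 and 0.178 to 0.242 CPM in the others (ratio 0.939). *Krt18* was at 53.1 CPM in 2W-PSC replicate 4 and 30.7 to 33.9 CPM in the others (ratio 0.857). *Spint2* was at 1.04 CPM in 3W-PSC replicate 2 and 0.127 to 0.266 CPM in the others (ratio 0.849).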

How the results depend on the processing

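Between 3W-PSCs and 2W-PSCs, the number of members called was 2 in every alternative run on all 8 libraries except DESeq2, which called 3, and 0 to 4 when a library was left out, which also lowers the number of libraries. *Krt8* changed sign to -0.20 without 2W-PSC replicate 2 and to -0.02 without 3W-PSC replicate 4, its range being -0.20 to 0.24 when libraries were left out. Other epithelial genes called in 2W-PSCs against mono-PSCs were 8, with 2 when at least 10 counts were required in every library (8 of the 71 tested), 13 in the joint fit of 12 libraries and 16 with DESeq2. In 3W-PSCs against mono-PSCs they were 18, and 4 with that stricter filter. Between the co-cultures they were 5, with 3 under the stricter filter, 8 with DESeq2 and 2 to 8 when a library was left out. Macrophage markers called between the co-cultures were 3, with 5 without a filter and 0 under the stricter filter, which left none to test. The median r between members was 0.70, and 0.83 without 2W-PSC replicate 2. With the replicate block, 2 members and 7 other epithelial genes were called, for 3W-PSCs against 2W-PSCs and 2W-PSCs against mono-PSCs, and no count of calls moved by over 1.5 times. Same-numbered 2W-PSC and 3W-PSC libraries gave r of -0.047 to 0.156, and mono-PSC and 3W-PSC libraries 0.001 to 0.106, so those numbers were not taken as pairs. At 3 counts or fewer, as for *Spint2* in most libraries, the depth cannot separate presence from absence.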
